A study of Mus musculus with 20 samples.

Results

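The constitutive proteasome genes of murine bone marrow-derived dendritic cells (BMDCs) were taken from the table of read counts by symbol, as every gene whose symbol opens with Psm, a letter from a to g and a digit. The immunoproteasome genes Psmb8, Psmb9 and Psmb10 were left out, and 47 of the 24421 listed genes remained. Of these, 46 passed a filter on low counts and were tested together with 12465 genes in all. The one that did not pass, Psmb11, a thymus-specific 20S subunit, had at most 1 read in any library. Bone marrow of wild-type C57BL/6 mice was cultured for 8 days with GM-CSF at 40 ng/mL to give BMDCs, and the cells of each of 5 mice (A to E) were divided over 4 groups. The DMSO Ova group received DMSO, which the labels give as 5%, and ovalbumin (Ova) for 4 hours. The DMSO IC group received DMSO and immune complexes (IC) of ovalbumin with IgG antibody, which bind Fcγ receptors. The iBET Ova and iBET IC groups received I-BET151 (iBET) at 3.3 μM, an inhibitor of the BET bromodomain proteins that read acetylated histones, from a stock that the methods describe as dissolved in DMSO. No group was left without ovalbumin. The labels describe iBET and stimulus as given together, the methods place iBET before the stimulus, and neither says whether the iBET groups held the same amount of solvent. GM-CSF cultures hold macrophage-like cells and granulocytes beside dendritic cells, and the labels describe sorting of the cells into lysis buffer where the methods describe no sort.

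The proteasome degrades proteins that carry chains of ubiquitin and supplies most of the peptides that are shown on MHC class I. Its 20S core is a barrel of α-subunit rings (Psma genes), which gate entry, and β-subunit rings (Psmb genes), of which Psmb5, Psmb6 and Psmb7 encode the proteolytic sites. The 19S particle on its end has a ring of ATPases (Psmc genes) that unfold the substrate, and non-ATPase subunits (most Psmd genes) that bind and remove ubiquitin. In dendritic cells exposed to interferons, Psmb8, Psmb9 and Psmb10 replace the constitutive catalytic subunits in newly built particles.

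Library totals ranged from 16447491 to 29245150 counts, of which the members made up 0.356% to 0.425%. Libraries of the same mouse deviated from their group means together, so the mouse is a pairing factor. Counts of calls from a fit with the mouse as a replicate block are given beside the main ones. Single genes whose call changed with the block are named only in part. Of 8 dendritic cell markers, all were detected in each group, with a summed level of 4569 to 7422 CPM (read counts scaled to library size, here with TMM factors) in DMSO Ova, 5324 to 8777 in DMSO IC, 4765 to 7630.0 in iBET Ova and 5714 to 9635 in iBET IC. The 8 macrophage markers, all detected, summed to 1396 to 2115, 1563 to 2133, 1033 to 1467 and 1094 to 1713 CPM in the same order, so they were lower with iBET in the median. Most of the dendritic cell sum was Cd74 and Itgax, whose means were higher with iBET under both stimuli. The means of the other dendritic cell markers were lower with iBET. Ciita went from 43.8 to 1.36 CPM in Ova and from 46.6 to 1.06 in IC, and Flt3 from 3.03 to 0.242 and from 2.56 to 0.349. Neutrophil markers, 8 of 9 listed, summed to 430.2 to 914 CPM over all groups, nearly all of it Mmp8 (means of 546 to 650 CPM), with S100a8 and S100a9 at means of 7.85 to 12.0 CPM and the other 5 at 1.36 CPM or less. The B cell and T or NK cell markers summed to 0.801 CPM or less, the mast cell or basophil markers to between 2.66 and 12.8 CPM, and the erythroid markers to between 0.962 and 15.9 CPM. The part of this cell mixture in the results was not tested. In bulk RNA, fewer cells that express a gene and less of its RNA per cell cannot be told apart.

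Levels between genes were compared as CPM per kilobase of annotated exon, in the DMSO Ova group. The 20S β genes had a median level of 51.6, the 19S ATPase genes 35.7, the 20S α genes 35.2 and the 19S non-ATPase genes 22.2 CPM per kilobase, whereas the assembly chaperones, which act on the particle as it is built and are not part of it, had 6.36. With the length of the longest transcript in place of all exons, the medians were 72.3, 38.3, 62.6, 37.9 and 10.5. The activators had 59.4 by exon and 62.5 by transcript length. The assembly chaperones were lowest of these roles with either length, and the order of the α genes and the ATPases depended on it. Psmb5 (108 ± 12.8 CPM per kilobase, SD, n = 5) and Psma6 (90.7 ± 8.75) led the subunits by exon length, and Psmd8 (89.1 ± 10.9), a subunit of the 19S lid, did not differ from Psma6 beyond its spread. At the low end were Psmd11 among the 19S subunits (8.95 ± 1.29), Psmf1, which encodes an inhibitor of the 20S core (4.30 ± 0.352), and Psma8, a testis-specific α-subunit (0.577 ± 0.110). Psmc3ip shares the symbol's start only, since it encodes a meiotic recombination factor, and it lay at 0.845 ± 0.0966. By transcript length the leading subunits came in another order. Psmd8 (137 CPM per kilobase) and Psmb6 (118) were then above Psmb5 (108) and Psma6 (107).

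Subunit transcripts were higher with IC than with Ova in DMSO-treated cells. Of the 46 members tested, 18 rose with IC against Ova and 0 fell (edgeR's quasi-likelihood test, adjusted p under 0.05), where 20.3% of all genes tested were called, 9.59% higher and 10.7% lower. No member was lower at an unadjusted p under 0.05 either, by edgeR, by DESeq2 or by limma on the deposited normalized counts, while 24 were higher at that level by edgeR. Members had a median log2 fold change of 0.17 and all genes one of -0.02. The rises were small, between 1.12-fold (Psmd2) and 1.40-fold (Psmb6). By role, 5 of 8 α genes, 5 of 7 β genes, 2 of 6 ATPase genes, 3 of 11 non-ATPase genes, 1 of 5 activators and 2 of 7 assembly chaperones rose, and neither Psmf1 nor Psmc3ip passed the test. With TMM scaling the 7 β genes and all 17 genes of the 19S particle had a fold change above 0, including those that did not pass. Of all 12465 genes tested, 5761 did.

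Among the catalytic subunits, Psmb6, the caspase-like one (chromosome 11, 70525367 to 70527858, + strand, GRCm38), was at 135, 119, 96.5, 107 and 112 CPM in the DMSO Ova libraries of mice A to E and at 177, 155, 159, 151 and 155 CPM with DMSO IC. Every IC library lay above every Ova library, mouse A was the highest in both groups, and the log2 fold change was 0.49 ± 0.08, SE, adjusted p = 0.000228. Psmb7, the trypsin-like subunit (chromosome 2, 38588036 to 38644087, - strand), was at 70.9, 64.6, 71.3, 65.6 and 73.0 CPM with Ova and at 82.1, 78.5, 89.6, 86.0 and 86.4 CPM with IC. Its groups did not overlap either (0.29 ± 0.06, SE, adjusted p = 0.00118). Psmb5, the chymotrypsin-like subunit (chromosome 14, 54614119 to 54618022, - strand), was at 116, 96.9, 98.6, 88.1 and 87.7 CPM with Ova and at 129, 117, 111, 104 and 119 CPM with IC. It was higher with IC in 5 of 5 mice, but the groups overlapped through the high Ova library of mouse A, and the call (0.25 ± 0.08, SE, adjusted p = 0.0405) was lost when mouse B, C, D or E was left out. Exons of Psmb7 overlap Nek6 over 11.8% of their length and those of Psmb5 a microRNA gene over 12.1%, and the strand setting of the counting is not given in the sources used here, so these reads cannot be told apart. Processed pseudogenes of subunit genes can also share reads with them.

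Outside the catalytic sites, Psmd8, a subunit of the 19S lid (chromosome 7, 29174188 to 29180701, - strand), was at 317, 294, 232, 262 and 257 CPM with Ova and at 385, 366, 354, 373 and 389 CPM with IC in DMSO (0.46 ± 0.08, SE, adjusted p = 0.000704). Psmc1, an ATPase of the 19S base (chromosome 12, 100110154 to 100123405, + strand), was at 81.8, 77.2, 66.1, 69.1 and 75.3 CPM with Ova and at 94.5, 87.3, 91.0, 93.1 and 88.8 CPM with IC (0.30 ± 0.06, SE, adjusted p = 0.000913). Psma2, an α-subunit (chromosome 13, 14613240 to 14674236, + strand), was at 93.0, 77.2, 72.8, 77.5 and 88.3 CPM with Ova and at 111, 99.7, 103, 99.1 and 99.5 CPM with IC (0.32 ± 0.07, SE, adjusted p = 0.00217). In all 3 genes the groups did not overlap, and the Ova libraries spread more widely than the IC libraries. Of the members, 10 had groups that did not overlap, against 12.4% of all genes, and these were Psma2, Psma3, Psma5, Psmb6, Psmb7, Psmc1, Psmc4, Psmd5, Psmd8 and Psme3. The members that rose outside the particle were Psmd5 and Psmd10, chaperones of the 19S base (0.29, adjusted p = 0.00387 and 0.33, adjusted p = 0.0177), and Psme3, an activator of the nuclear 20S core (0.21, adjusted p = 0.00987).

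**Figure D1:**
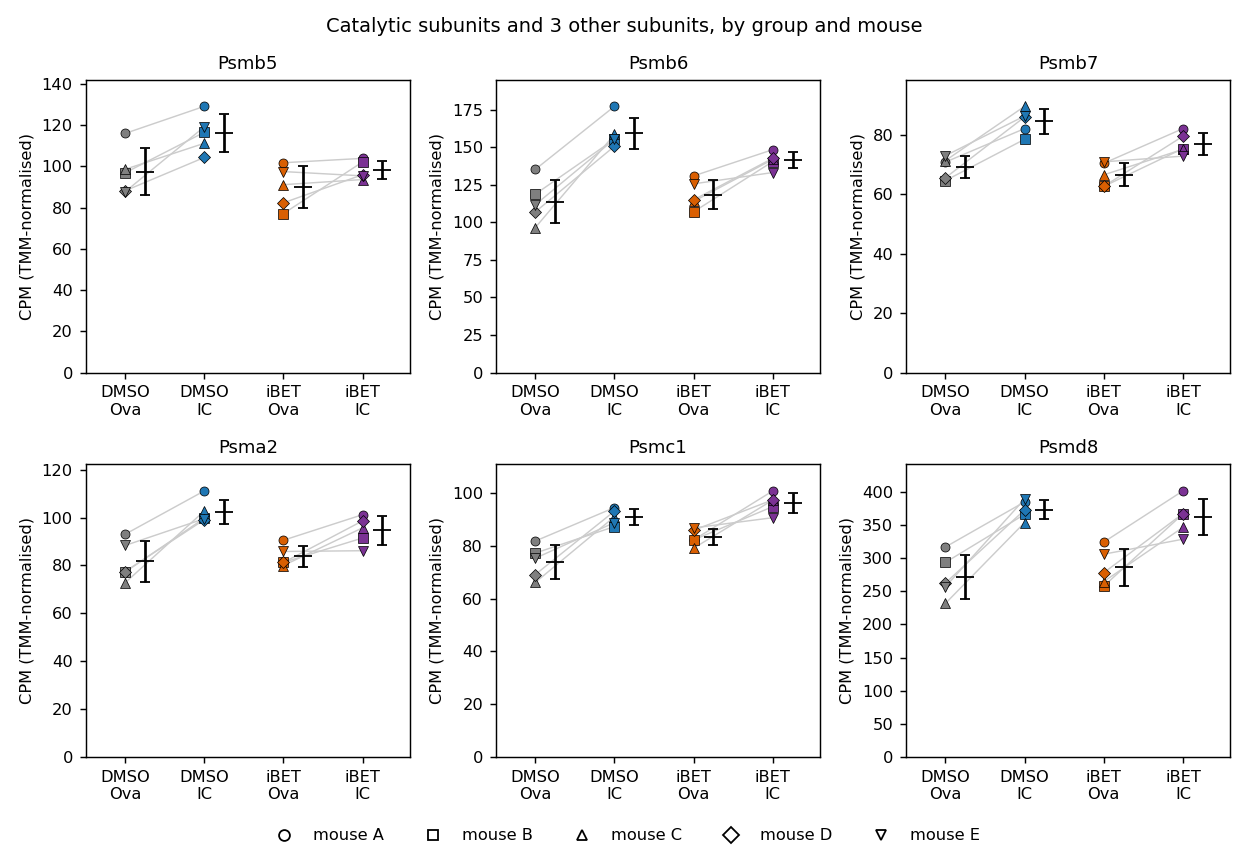
CPM of Psmb5, Psmb6, Psmb7, Psma2, Psmc1 and Psmd8 in the 4 groups (y axis, TMM-normalized CPM from 0), with 1 point for each mouse, a grey line joining the Ova and IC libraries of a mouse, and a bar for the mean and SD of 5 libraries. In DMSO-treated cells each IC library lies above the Ova library of its mouse for all 6 genes, and for all but Psmb5 the groups do not overlap.

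With TMM scaling most members were higher with IC in each mouse, but unevenly. In mouse A the TMM factor was 1.04 for the DMSO Ova library and 0.964 for the DMSO IC library. Counts by mouse were not made with scaling by library totals alone, so the direction in mouse A rests on TMM. Of the 46 members, 33, 40, 43, 40 and 36 were higher with IC in mice A to E, where between 46.8% and 50.3% of all genes were. The median difference of a member was smallest in mouse A (0.06 on the scale of log2(CPM + 0.5)) and largest in mouse C (0.31). Higher in 5 of 5 mice were 26 members, against 17.9% of all genes tested. With the mouse as a replicate block, 28 members rose and 0 fell (38.1% of all genes were called, 18.3% higher and 19.8% lower), and the 18 called without the block were among them. Added by the block were Psma1, Psmb1, Psmb3, Psmc2, Psmc3, Psmc5, Psmd7, Psmd13, Psme2b and Psmf1. Of the 18, 8 stayed past the threshold whichever mouse was left out (Psma2, Psma5, Psmb6, Psmb7, Psmc1, Psmc4, Psmd5 and Psmd8), Psma7 was lost whichever mouse was left out, and the counts were 9 without mouse C and 8 without mouse D. When libraries were scaled by their totals alone, the median of all genes moved to -0.13 and 7 members rose and 0 fell, beside 4.67% and 20.8% of all genes, and 36 of 46 had a fold change above 0, against 42 with TMM.

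With iBET present, 8 members rose with IC and 0 fell (edgeR's quasi-likelihood test), where 11.8% of all genes were called, 5.19% higher and 6.63% lower. No member was lower at an unadjusted p under 0.05 with edgeR, DESeq2 or limma. The 8 were Psma3, Psma5, Psmb2, Psmb6, Psmb7, Psmc1, Psmd2 and Psmd8, and all of them were also among the 18 that rose in DMSO-treated cells, a comparison of other libraries of the same mice. The median log2 fold change was 0.13 for members and -0.01 for all genes. With TMM scaling 43 of 46 members lay above 0, beside 5908 of all 12465 genes, and with library totals 29 members did. With the replicate block 18 members rose and 0 fell (28.9% of all genes called, 14.2% higher and 14.7% lower). In fits without the block, no call held whichever mouse was left out. There the number of members called fell to 0 without mouse B or D, to 1 without mouse C and to 3 without mouse A. Scaled by library totals alone, all genes had a median of -0.12, and 1 member rose and 0 fell, beside 2.51% and 16.3% of all genes.

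Psmd8 was at 324, 258, 265, 278 and 306 CPM in the iBET Ova libraries of mice A to E and at 401, 367, 346, 367 and 329 CPM with iBET IC (0.34 ± 0.08, SE, adjusted p = 0.0104). Psmb6 was at 131, 107, 114, 115 and 126 CPM with Ova and at 148, 141, 142, 143 and 133 CPM with IC in the presence of iBET (0.25 ± 0.08, SE, adjusted p = 0.0376). Psmc1 stood at 82.2, 82.2, 79.1, 85.9 and 86.8 CPM and 101, 94.8, 97.3, 97.4 and 90.7 CPM (0.21 ± 0.06, SE, adjusted p = 0.0188). In all 3 genes the lowest IC library lay above the highest Ova library, and the IC library of mouse E was the lowest of its group. Psmb7 was at 70.4, 62.7, 66.6, 62.7 and 70.9 CPM with iBET Ova and at 82.1, 75.4, 75.1, 79.5 and 72.9 CPM with iBET IC (0.21 ± 0.06, SE, adjusted p = 0.0196). Psmd2, which encodes a large scaffold subunit of the 19S base, was at 260.3, 267, 269.9, 258 and 287 CPM and 309, 306, 295, 303 and 296 CPM (0.17 ± 0.05, SE, adjusted p = 0.0417). Neither pair of groups overlapped, and for Psmd2 the IC library of every mouse exceeded all 5 Ova libraries by little, the closest pair being 287 and 295. Psmb5 did not pass (0.13 ± 0.08, SE, adjusted p = 0.377). By mouse and with TMM scaling, 41, 36, 40 and 44 of 46 members were higher with IC in mice A to D, and 24 in mouse E.

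The promoters of members that rose with IC were read to see whether they share letters bound by factors known to act on subunit genes. Shown are the 250 bases before the annotated start of the catalytic subunits Psmb5 and Psmb6 and of Psma2, Psmc1 and Psmd8, the other 20S or 19S genes with a promoter entry and the largest IC log2 fold changes in DMSO, from RefSeq on GRCm38.p6, 5′ to 3′ on the strand of the gene. Capitals mark TGACNNNGC, the core of the antioxidant response element that binds the transcription factors Nfe2l1 and Nfe2l2, or CCAAT, the box bound by NF-Y, searched on both strands.
Psmb5, chr14:54617996-54618245, - strand: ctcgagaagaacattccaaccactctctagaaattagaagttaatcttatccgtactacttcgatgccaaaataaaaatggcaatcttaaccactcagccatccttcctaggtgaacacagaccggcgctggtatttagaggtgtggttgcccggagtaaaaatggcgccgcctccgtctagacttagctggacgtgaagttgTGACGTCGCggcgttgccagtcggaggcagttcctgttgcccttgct
Psmb6, chr11:70525107-70525356, + strand: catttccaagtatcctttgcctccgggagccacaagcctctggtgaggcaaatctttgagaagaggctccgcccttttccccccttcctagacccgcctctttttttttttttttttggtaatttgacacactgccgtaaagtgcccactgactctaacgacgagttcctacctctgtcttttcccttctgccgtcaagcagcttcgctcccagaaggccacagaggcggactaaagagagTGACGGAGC
Psma2, chr13:14612992-14613241, + strand: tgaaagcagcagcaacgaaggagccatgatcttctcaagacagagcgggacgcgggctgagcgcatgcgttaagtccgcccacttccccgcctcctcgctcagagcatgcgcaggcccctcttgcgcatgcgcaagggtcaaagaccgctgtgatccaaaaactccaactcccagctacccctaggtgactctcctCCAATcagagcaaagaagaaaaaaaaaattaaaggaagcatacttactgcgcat
Psmc1, chr12:100109952-100110201, + strand: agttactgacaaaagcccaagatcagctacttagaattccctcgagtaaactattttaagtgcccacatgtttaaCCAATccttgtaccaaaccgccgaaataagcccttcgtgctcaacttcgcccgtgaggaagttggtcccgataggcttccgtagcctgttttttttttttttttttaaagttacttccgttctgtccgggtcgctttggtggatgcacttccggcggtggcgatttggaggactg
Psmd8, chr7:29180674-29180923, - strand: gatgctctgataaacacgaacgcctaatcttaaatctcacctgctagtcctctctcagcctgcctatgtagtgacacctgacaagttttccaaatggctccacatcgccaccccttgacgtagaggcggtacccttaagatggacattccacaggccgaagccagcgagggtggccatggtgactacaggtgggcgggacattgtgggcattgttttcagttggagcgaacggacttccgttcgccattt

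The response element core stood 47 bases before the start of Psmb5 and directly before the start of Psmb6, a CCAAT box 54 bases before that of Psma2 and 175 bases before that of Psmc1, and neither sequence of letters was in the window of Psmd8. Of the 47 members, 39 had a promoter in the RefSeq table, in 42 entries. The response element core was in 5 of the 42 entries (11.9%) and in 11.9% of the 11836 entries of genes tested, and CCAAT was in 14 (33.3%) against 35.3%, so neither share of the members stood above that of genes in general. Among members that rose with IC in DMSO and had an entry, 2 of 16 held the response element core and 7 of 16 a CCAAT box, and among tested members that did not pass, 3 of 22 and 6 of 22.

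With iBET single subunits changed in both directions, and the family as a whole moved little. In Ova-treated cells 11 members rose and 5 fell (edgeR, adjusted p under 0.05), where 56.6% of all genes were called, 27.7% higher and 28.9% lower. In IC-treated cells 6 rose and 10 fell, against 56.1% of all genes called, 27.1% higher and 29% lower. The share of members called, 16 of 46 in each case, lay below that of all genes. The median log2 fold change of members was 0.05 with Ova and -0.02 with IC, and -0.0029 and -0.0054 for all genes. With libraries scaled by their totals alone the split was 7 up against 10 down in Ova, beside 24.2% and 32.1% of all genes, and 3 up against 15 down in IC, beside 23.9% and 32.3%. With the replicate block 14 rose and 10 fell with Ova (68.7% of all genes called, 33.5% higher and 35.2% lower) and 10 rose and 14 fell with IC (68%, 32.6% higher and 35.4% lower). The summed macrophage markers had medians of 1622 CPM in DMSO Ova, 1159 in iBET Ova, 1649 in DMSO IC and 1311 in iBET IC, and their part in these results was not tested. With a log2 fold change of 0.5 or more in size also required, 1 member was called with Ova (Psmd3) and 2 with IC (Psmd3 and Psme2b), beside 33.9% and 33.8% of all genes.

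In the main fit the same 5 members rose with iBET under both stimuli, namely Psmc6, Psmd2, Psmd3, Psmd4 and Psme4. The 5 that fell with Ova, Psma6, Psmc3, Psmc4, Psmd1 and Psme2b, also fell with IC. The 2 comparisons rest on different libraries of the same mice. Called only with Ova in that fit were rises of Psmb4, Psmc1, Psmc3ip, Psmd5, Psme3 and Psmg1. Called only with IC were a rise of Psmg3 and falls of Psma1, Psmb5, Psmb7, Psmd6 and Psmd10. With the replicate block Psmb4 and Psmg1 were also called with IC and Psmd10 with Ova, so these lists depend on the fit. No member passed the test of the interaction between iBET and stimulus.

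Psmd3, which encodes a subunit of the 19S lid (chromosome 11, 98682554 to 98695979, + strand), was at 65.5, 57.7, 66.7, 65.8 and 64.1 CPM in the DMSO Ova libraries of mice A to E and at 81.3, 81.9, 101, 101 and 113 CPM with iBET Ova. With IC it was at 58.9, 67.2, 69.6, 73.6 and 83.2 CPM in DMSO and at 90.2, 94.7, 113, 109 and 108 CPM in iBET. Every iBET library lay above every DMSO library of its stimulus, and the rise was 1.49-fold with Ova (0.58 ± 0.10, SE, adjusted p = 4.97e-05) and 1.46-fold with IC (0.55 ± 0.10, SE, adjusted p = 8.98e-05). Psmd4, a ubiquitin receptor of the 19S particle (chromosome 3, 95032694 to 95042614, - strand), was at 91.0, 85.2, 81.9, 83.3 and 87.9 CPM with DMSO and at 102, 94.6, 101, 101 and 117 CPM with iBET in Ova (0.27 ± 0.06, SE, adjusted p = 0.00115). In IC it was at 84.0, 92.1, 87.0, 96.8 and 101 CPM with DMSO and at 115, 109, 112, 121 and 109 CPM with iBET (0.29 ± 0.06, SE, adjusted p = 0.000480). Both pairs of groups were apart. Psmg1, a chaperone of α-ring assembly (chromosome 16, 95979933 to 95990960, - strand), was at 13.6, 10.7, 13.2, 11.0 and 11.1 CPM with DMSO and at 15.8, 14.6, 15.4, 13.9 and 17.2 CPM with iBET in Ova (0.37 ± 0.09, SE, adjusted p = 0.00134). The Ova groups did not overlap, and with IC the difference did not pass (0.18 ± 0.09, SE, adjusted p = 0.0926; with the replicate block, adjusted p = 0.0298).

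Psma6, an α-subunit (chromosome 12, 55384222 to 55418454, + strand), fell with iBET under both stimuli. It was at 120.3, 99.6, 106, 108 and 126 CPM with DMSO and at 82.6, 84.6, 86.0, 78.4 and 93.8 CPM with iBET in Ova (-0.40 ± 0.07, SE, adjusted p = 3.96e-05). In IC it was at 125, 119, 136, 123 and 136 CPM with DMSO and at 101, 97.7, 93.4, 100.003 and 94.4 CPM with iBET (-0.40 ± 0.07, SE, adjusted p = 3.86e-05). The highest iBET library stayed below the lowest DMSO library in each case. Psmd1, a large scaffold subunit of the 19S base (chromosome 1, 86064387 to 86139151, + strand), was at 127, 114, 111, 113 and 119 CPM with DMSO and at 103, 105, 103, 100.5 and 104 CPM with iBET in Ova (-0.18 ± 0.05, SE, adjusted p = 0.00219). In IC it was at 131, 127, 132, 137 and 134 CPM with DMSO and at 111, 108, 109, 114 and 104 CPM with iBET (-0.27 ± 0.05, SE, adjusted p = 4.11e-05). The groups were apart under both stimuli. Its exons overlap those of Gm21972 and Htr2b over 7.61% of their length. Psmc4, an ATPase of the 19S base (chromosome 7, 28041707 to 28050101, - strand), was at 96.3, 88.8, 92.2, 88.5 and 94.7 CPM with DMSO and at 79.4, 72.0, 75.7, 73.1 and 70.8 CPM with iBET in IC (-0.31 ± 0.06, SE, adjusted p = 8.54e-05). In Ova it was at 86.9, 74.5, 72.7, 74.4 and 74.9 CPM with DMSO and at 70.8, 63.1, 66.3, 66.2 and 71.0 CPM with iBET (-0.18 ± 0.06, SE, adjusted p = 0.00823). Here too the groups did not overlap, and the DMSO Ova library of mouse A was well above the other 4.

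**Figure D2:**
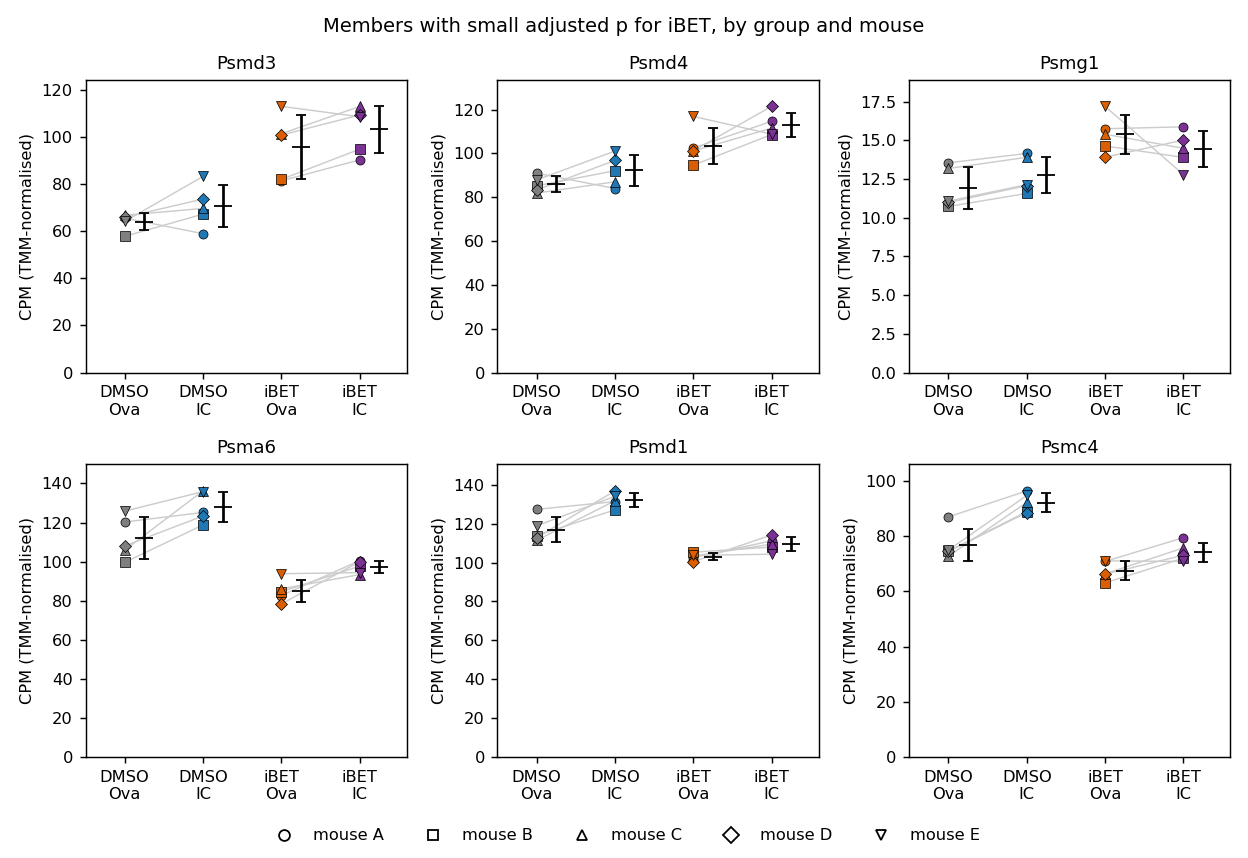
CPM of Psmd3, Psmd4, Psmg1, Psma6, Psmd1 and Psmc4 in the 4 groups (y axis, TMM-normalized CPM from 0), with 1 point for each mouse, a grey line joining the Ova and IC libraries of a mouse, and a bar for the mean and SD of 5 libraries. The upper row shows genes whose iBET Ova libraries all lie above the DMSO Ova libraries, the lower row genes whose iBET Ova libraries all lie below them.

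Members of a single role could differ in direction with iBET. In the ring of 19S ATPases, Psmc6 rose in Ova, from 85.8, 73.3, 69.6, 69.7 and 79.9 CPM with DMSO to 89.3, 95.4, 87.9, 79.1 and 86.2 CPM with iBET (0.21 ± 0.07, SE, adjusted p = 0.0117). Psmc3 fell, from 132, 112, 98.8, 106 and 107 CPM to 101, 88.8, 88.7, 92.4 and 99.0 CPM (-0.24 ± 0.07, SE, adjusted p = 0.00529), a call that was lost without mouse B. Both pairs of groups overlapped. Among the activators, which open the gate of the 20S core, Psme4 was at 141, 142, 132, 141 and 142 CPM with DMSO and at 169, 189, 165, 167 and 128 CPM with iBET in Ova (0.23 ± 0.08, SE, adjusted p = 0.0204). It was higher in all mice but E, and the call held in 1 of 5 fits without a mouse. Psme2b, a copy of Psme2 that encodes a subunit of the interferon-inducible activator, was at 48.6, 38.8, 57.1, 60.4 and 56.8 CPM with DMSO and at 35.5, 29.1, 42.6, 43.8 and 48.0 CPM with iBET in Ova (-0.40 ± 0.16, SE, adjusted p = 0.0368). Reads of Psme2b and Psme2 can be split between them in ways not stated, so the value of either gene is uncertain. The other genes of this activator, Psme1 and Psme2, did not pass in the main fit (-0.24, adjusted p = 0.219 and -0.32, adjusted p = 0.0605 with Ova) but were lower in 5 of 5 mice and passed with the replicate block (adjusted p = 0.00183 and 0.00104), and with IC likewise (0.00528 and 0.00105).

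Of the catalytic subunits, none passed for iBET in Ova. Psmb5 had a log2 fold change of -0.12 ± 0.08, SE, adjusted p = 0.256, with a 95% interval from -0.29 to 0.061, Psmb6 one of 0.06 ± 0.08, SE, adjusted p = 0.540 and Psmb7 one of -0.05 ± 0.06, SE, adjusted p = 0.454. In IC, Psmb5 was at 104, 102, 93.6, 95.9 and 95.4 CPM with iBET, each library below the 104 CPM of the lowest DMSO IC library (-0.24 ± 0.08, SE, adjusted p = 0.0204). That call was lost without mouse B, C or E. Psmb7 also fell (-0.13 ± 0.06, SE, adjusted p = 0.0469), and its call was lost without mouse B, C, D or E and with 6 other settings. Psmb6 did not pass in IC (-0.17 ± 0.08, SE, adjusted p = 0.0630), did so with the replicate block (adjusted p = 0.0134), and had iBET libraries that were all below the DMSO libraries. These fold changes share the DMSO IC libraries with those of IC against Ova in DMSO. Psmb4, a β-subunit with no proteolytic site, rose in Ova, from 145, 125, 117, 118 and 127 CPM to 160.2, 123, 144, 148 and 163 CPM (0.23 ± 0.07, SE, adjusted p = 0.0142), with overlapping groups and a call lost without mouse C, D or E. The α genes with the highest and lowest fold changes, Psma4 (0.18, adjusted p = 0.0622) and Psma8 (-0.46, adjusted p = 0.205), did not pass without the block and did so with it (adjusted p = 0.0469 and 0.0333), and Psma8 was at or under 1.87 CPM in each library.

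Among the assembly chaperones, Psmd5 rose with iBET in Ova (0.21, adjusted p = 0.00902) beside Psmg1. Psmd10 was at 24.4, 20.8, 21.2, 22.4 and 20.7 CPM in DMSO IC and at 18.5, 16.2, 18.5, 16.0 and 17.5 CPM in iBET IC, with no overlap (-0.34 ± 0.09, SE, adjusted p = 0.00480). In Ova it did not pass (-0.19 ± 0.09, SE, adjusted p = 0.0933; with the block, adjusted p = 0.0321). Psmf1 did not pass for iBET in Ova (-0.07, adjusted p = 0.462) or in IC (0.02, adjusted p = 0.807), and its libraries ranged from 22.5 to 34.2 CPM over all groups. Psmc3ip rose 1.41-fold with iBET in Ova (0.50 ± 0.17, SE, adjusted p = 0.0174), but stood at 1.37 to 2.82 CPM in all libraries, and its exons overlap Mlx over 21.2% of their length. In all, 6 members in Ova and 14 in IC had groups that did not overlap, against 38% and 42.8% of all genes. Whichever mouse was left out, 7 of the 16 calls held in Ova (Psma6, Psmc6, Psmd1, Psmd3, Psmd4, Psmd5 and Psmg1) and 9 of the 16 in IC (Psma6, Psmc3, Psmc4, Psmd1, Psmd3, Psmd4, Psmd10, Psme2b and Psme4).

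**Figure D3:**
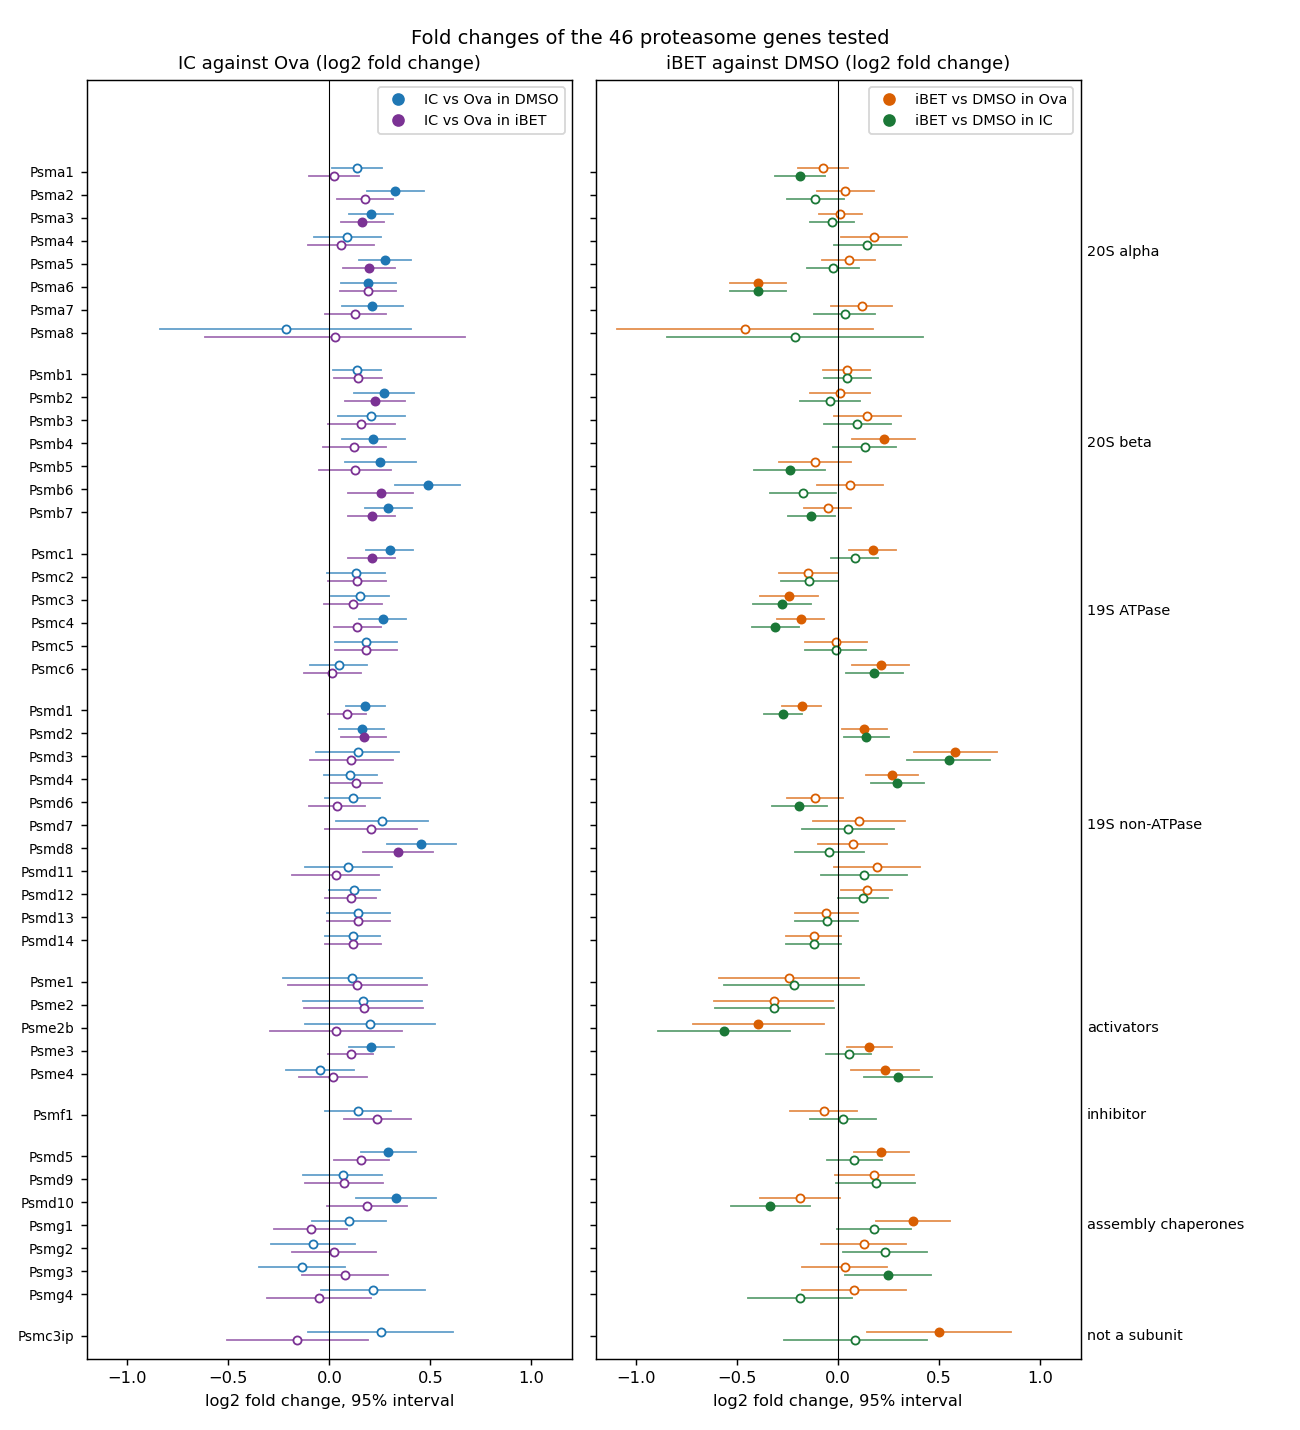
Log2 fold changes (x axis) of the 46 members tested, with 95% intervals as lines, by role; the left panel shows IC against Ova in DMSO and in iBET, the right panel iBET against DMSO in Ova and in IC. Filled points passed an adjusted p of 0.05 and open points did not; on the left 42 of 46 points in DMSO and 43 of 46 in iBET lie above 0 with TMM scaling (36 and 29 with scaling by library totals), and on the right called points lie on both sides of 0.

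Whether iBET acted on the members differently under IC and Ova was asked by the interaction, which is the log2 fold change of iBET in IC minus that in Ova. No member passed (edgeR), where 0.0401% of all genes did, 0.0241% above 0 and 0.016% below. DESeq2 and limma also called 0 members, and 1 member had an unadjusted p under 0.05 in edgeR, namely Psmb6 (-0.23 ± 0.11, SE, unadjusted p = 0.0469, 95% interval -0.46 to -0.0035). Its rise with IC was 1.40-fold in DMSO and 1.19-fold in iBET, and those fold changes were not shown to differ. The next smallest p values were those of Psmc3ip (-0.41 ± 0.24, SE, unadjusted p = 0.1002, 95% interval -0.91 to 0.087) and Psmc4 (-0.13 ± 0.08, SE, unadjusted p = 0.123, 95% interval -0.29 to 0.038). With the replicate block the count was also 0 (0.818% of all genes called, 0.401% above 0 and 0.417% below). The interval of Psmb6 runs from a difference close to its whole rise with IC in DMSO to nearly none.

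Summed over genes, the 20S core was at 1449, 1286, 1209, 1265 and 1342 CPM in DMSO Ova and at 1585, 1463, 1572, 1542 and 1553 CPM in DMSO IC (mice A to E). With iBET it was at 1389, 1232, 1297, 1315 and 1429.8 CPM in Ova and at 1531, 1461, 1442, 1558 and 1405 CPM in IC. The IC libraries lay above the Ova libraries in DMSO, while in iBET those of mouse E crossed over, its IC library being lower than its Ova library. The 19S particle was at 1612 ± 105 CPM in DMSO Ova and 1867 ± 41.1 in DMSO IC (SD, n = 5), and at 1673 ± 59.7 in iBET Ova and 1875 ± 46.2 in iBET IC. Its groups did not overlap between IC and Ova under either treatment, and its iBET and DMSO groups overlapped under both stimuli. The activators stood at 536 ± 67.6, 579 ± 59.2, 511 ± 22.1 and 545 ± 44.7 CPM, in the order DMSO Ova, DMSO IC, then iBET Ova and iBET IC, and the assembly chaperones at 125 ± 7.11, 142 ± 6.57, 137 ± 9.15 and 146 ± 6.15. As sums over chosen members, these levels are a description, without a test.

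**Figure D4:**
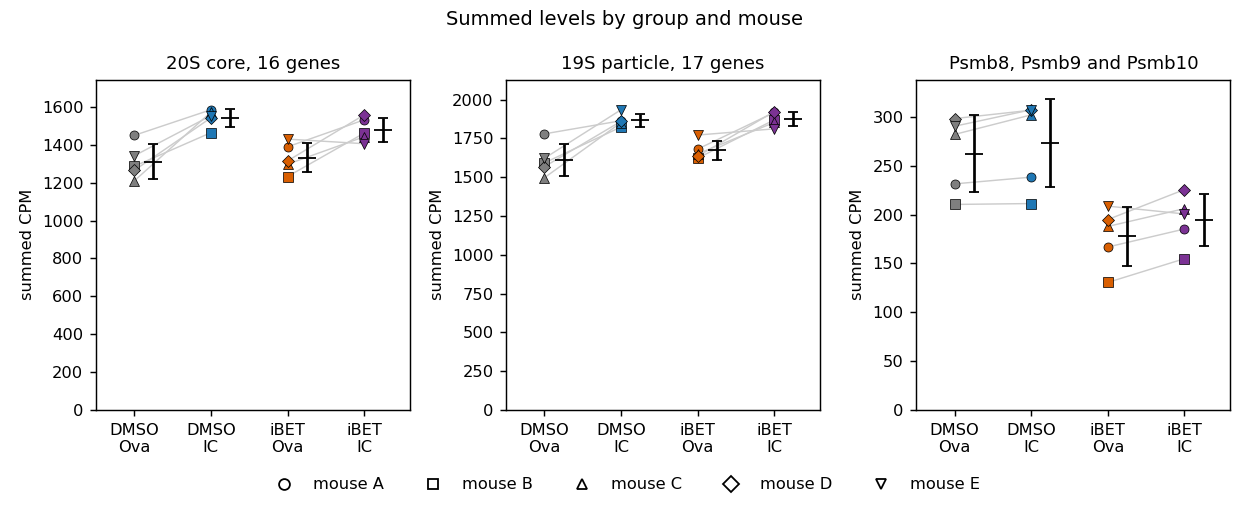
Summed CPM (y axis from 0) of the 16 genes of the 20S core, the 17 genes of the 19S particle and the 3 immunoproteasome genes in the 4 groups, with 1 point for each mouse, a grey line joining the Ova and IC libraries of a mouse, and a bar for the mean and SD of 5 libraries. The mean 20S and 19S sums are higher with IC, although the iBET libraries of mouse E go the other way for the 20S core, while the immunoproteasome sum is lower with iBET (263 ± 39.1 against 178 ± 30.4 CPM in Ova).

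The constitutive catalytic subunits were then set against the immunoproteasome genes that take their places, as ratios of CPM per kilobase in each library. Psmb10 over Psmb7 was at 1.81, 1.76, 1.90, 2.45 and 1.87 in DMSO Ova and at 0.974, 0.679, 0.994, 1.08 and 1.09 in iBET Ova (mice A to E). In IC it was 1.66 ± 0.142 with DMSO and 0.968 ± 0.132 with iBET (SD, n = 5). The ratio was lower with iBET in every mouse and the groups did not overlap. The mean log2 ratio differed by -1.03 in Ova and by -0.79 in IC (exact permutation test, two-sided, p = 0.00794 in each case, the smallest that 5 against 5 allows, adjusted p = 0.0476 over 12 tests). Psmb10 itself fell with iBET (-1.06, adjusted p = 1.59e-06 in Ova and -0.92, adjusted p = 8.98e-06 in IC). Psmb8 fell as well (-0.46, adjusted p = 0.00623 and -0.40, adjusted p = 0.0153), while Psmb9 did not pass in the main fit and did so with the replicate block (-0.25, adjusted p = 0.00279 in Ova and -0.19, adjusted p = 0.0142 in IC). Psmb8 over Psmb5 was 0.460 ± 0.112 in DMSO Ova and 0.356 ± 0.0511 in iBET Ova, and Psmb9 over Psmb6 was 0.139 ± 0.0396 and 0.110 ± 0.0271. Both ratios were lower with iBET in 5 of 5 mice in Ova, but their differences did not pass (exact permutation test, adjusted p = 0.343 and 0.492). That test sets 5 libraries against 5 without the mouse. An exact permutation within mice gave p = 0.0625 for these 2 ratios in Ova, and for Psmb10 over Psmb7 in Ova and in IC, the smallest that 5 pairs allow, so with the pairing no ratio could pass. With the longest transcript as length, Psmb8 over Psmb5 was 0.815 in DMSO Ova and Psmb9 over Psmb6 was 0.0907, so the level of a ratio depends on the length used and its comparison between groups does not. With IC against Ova in DMSO the mean log2 ratio was lower in 5 of 5 mice for Psmb10 over Psmb7 (-0.23), Psmb9 over Psmb6 (-0.49) and Psmb8 over Psmb5 (-0.20), and none passed (exact permutation test, adjusted p = 0.0952, 0.343 and 0.614). In iBET the differences were 0.014, -0.19 and -0.0044, and the second was again lower in 5 of 5 mice.

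**Figure D5:**
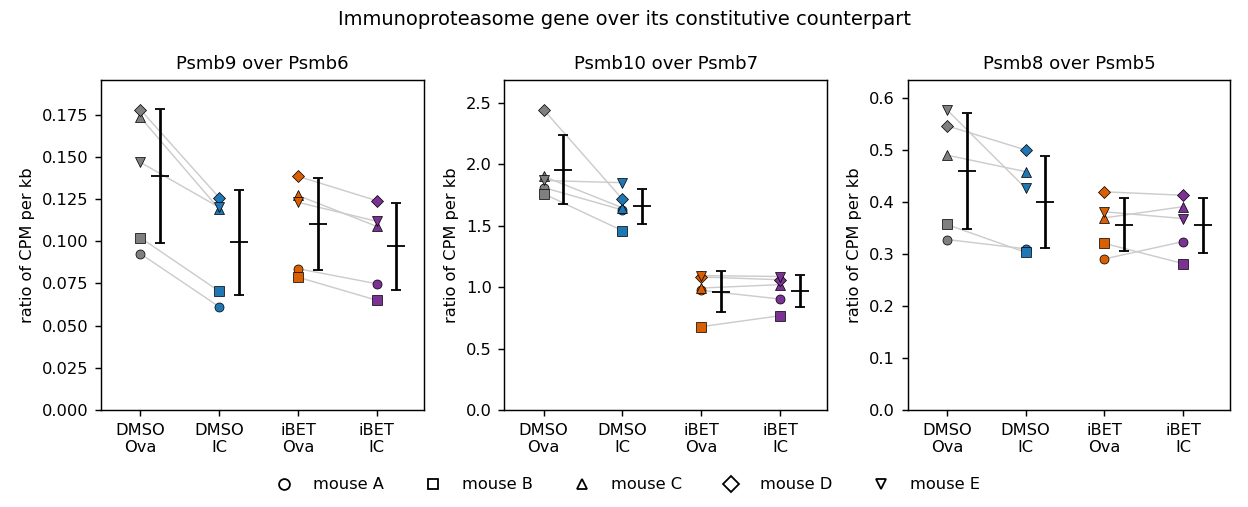
Ratio of CPM per kilobase of exon (y axis from 0) of Psmb9 to Psmb6, Psmb10 to Psmb7 and Psmb8 to Psmb5 in the 4 groups, with 1 point for each mouse, a grey line joining the Ova and IC libraries of a mouse, and a bar for the mean and SD of 5 libraries. For Psmb10 over Psmb7 the iBET libraries all lie below the DMSO libraries, and for the other ratios the groups overlap.

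Genes of the pathway outside the symbol rule were read from a list of 35 symbols, of which 31 were in the table and all of these were tested. With IC in DMSO, 12 rose and 3 fell, beside 9.59% and 10.7% of all genes. With the replicate block 15 rose and 3 fell, beside 18.3% and 19.8%, and Adrm1, Rad23b and Rps27a were added. Pomp, which completes assembly of the 20S core, was at 59.1, 48.3, 48.9, 53.1 and 54.6 CPM with Ova and at 69.7, 61.7, 72.3, 66.8 and 65.1 CPM with IC in DMSO, and every IC library exceeded every Ova library (0.35 ± 0.06, SE, adjusted p = 0.000748). Zfand2a, a stress-induced protein of the 19S particle (0.72, adjusted p = 9.30e-05), Zfand5, an activator of it (0.39, adjusted p = 0.0123), and the 19S-bound deubiquitinase Usp14 (0.23, adjusted p = 0.00768) rose too, as did Shfm1, a small 19S subunit (0.24, adjusted p = 0.0114). Nfe2l2, a stress-responsive transcription factor that can induce subunit genes, was at 209.9, 193, 146, 181 and 161 CPM with Ova and at 285, 296, 268, 293 and 239 CPM with IC (0.63 ± 0.08, SE, adjusted p = 4.36e-05). Its groups did not overlap either, whereas Nfe2l1, the factor that drives subunit synthesis when the proteasome is impaired, did not pass in DMSO (-0.04, adjusted p = 0.763) and fell with IC in iBET (-0.29, adjusted p = 0.00744). The 3 that fell in DMSO were Ngly1, the glycanase that activates Nfe2l1 (-0.38, adjusted p = 0.000472), the 19S-bound deubiquitinase Uchl5 (-0.25, adjusted p = 0.0309) and AI314180, which encodes a proteasome adaptor (-0.27, adjusted p = 0.0173). In iBET 5 rose with IC and 2 fell, beside 5.19% and 6.63% of all genes, and with the replicate block 10 rose and 3 fell (14.2% and 14.7%).

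With iBET against DMSO, 12 pathway genes rose and 5 fell in Ova, and 10 rose and 6 fell in IC. Among them were Ube3c, a ubiquitin ligase bound to the 19S particle (0.65, adjusted p = 1.19e-09 in Ova and 0.74, adjusted p = 1.94e-10 in IC), Uchl5 (0.58, adjusted p = 4.02e-06 in Ova and 0.73, adjusted p = 1.87e-07 in IC), Ngly1 (0.57, adjusted p = 3.02e-07 in Ova and 0.73, adjusted p = 1.27e-08 in IC) and Ubqln2, a shuttle factor that carries substrates to the proteasome (0.73, adjusted p = 0.00335 in Ova and 0.67, adjusted p = 0.00609 in IC). These were the 4 largest rises of the list under both stimuli. In Ova, the polyubiquitin gene Ubb (0.44, adjusted p = 0.000106) rose, and so did Vcp, the segregase that extracts ubiquitylated proteins (0.34, adjusted p = 4.99e-06). The shuttle factor Rad23b (-0.27, adjusted p = 0.000400) fell. In both directions together the pathway genes called, 17 and 16 of 31, were no larger a share than among all genes (56.6% and 56.1%). Those called higher were 12 and 10 of 31, beside 27.7% and 27.1% of all genes. With the replicate block 14 rose and 6 fell in Ova, beside 33.5% and 35.2% of all genes. In IC 10 rose and 7 fell with the block, beside 32.6% and 35.4%, so no larger share was called higher there.

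Over the 20 libraries, 24 of 32 tested 20S and 19S subunits had a Pearson correlation above 0.5 with the mean of the other subunits (standardised log2 CPM, median r = 0.665). Psma2 (0.925), Psma5 (0.921), Psmb6 (0.918) and Psmd8 (0.913) followed the others most closely, and Psmd3 (0.134), Psmd11 (-0.180) and Psma8 (-0.228) least. The 5 genes outside the list whose pattern was most like that mean were Anxa4 (r = 0.941), Tspan5 (0.922), Tor3a (0.921), Vapa (0.919) and Tmem183a (0.914). The libraries share mice and fall into 4 groups, so these values describe the pattern, without a test.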

How the data were processed

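RNA was sequenced from 20 BMDC libraries, 5 mice in each of 4 groups. Per the methods and the submitters' processing notes, the authors trimmed the reads, aligned them to mm10 with HISAT2 and counted them per gene with featureCounts. The annotation, the strand setting and the versions are not given in the sources used here. The authors deposited raw counts, which were used here, and a table of normalized signal, which equalled the counts divided by DESeq2 size factors. No value column was without a sample (0 columns).

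Counts were filtered with filterByExpr, normalized with TMM and fitted with edgeR 4.0.16 (R 4.3.3) in a quasi-likelihood model of the 4 groups over 20 libraries, with Benjamini-Hochberg adjustment over 12465 genes and a threshold of 0.05. SE is the absolute log2 fold change divided by the root of F. Ratios of genes were tested by exact permutation (scipy 1.17.1), a test added after the data were seen. Alternatives were a replicate block of the mouse, DESeq2 1.42.0, limma 3.58.1 on log2(normalized signal + 1), surrogate variables from sva 3.50.0, other scaling, filters, samples and lengths. Fits with mice left out held no replicate block. The scripts were tested on simulated data. Deviations from the group means of libraries of the same mouse correlated with a mean r of 0.524 (lowest 0.307, 30 pairs), and those of different mice in different groups with a mean of -0.127, and the labels name the mouse. No pair of replicates agreed within sampling noise (chi-square per degree of freedom at least 12.8). Totals of 16447491 to 29245150 counts set the counting precision. Replicates are separate mice.

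The members and lists were chosen with earlier results of these data known. Values for each library are given for the catalytic subunits, the members of each role with the highest or lowest log2 fold change for iBET in Ova, the members with the 5 smallest adjusted p in a comparison and the 3 smallest p of the interaction, in so far as the text describes them. Promoters came from RefSeq on GRCm38.p6, and gene positions and lengths from GENCODE on GRCm38.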

Additional observations from a re-analysis of the deposited data

Results flagged for a closer look

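In 5 of 128 groups of 5 libraries (3.91%), a library stood apart from the other 4 by more than Dixon's critical value of 0.71 for its gap over the range of the group, and chance alone gives about 1 in 20. Psmc4 was highest in the DMSO Ova library of mouse A (86.9 CPM against 72.7 to 74.9, gap over range 0.846). Psme4 was lowest in the DMSO Ova library of mouse C (132 CPM against 141 to 142, 0.833). The summed assembly chaperones were highest in the iBET IC library of mouse A (157 CPM against 142 to 146, 0.737). The ratio of Psmb10 to Psmb7 was highest in the DMSO Ova library of mouse D (2.45 against 1.76 to 1.90, 0.793) and lowest in the iBET Ova library of mouse B (0.679 against 0.974 to 1.09, 0.711).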

How the results depend on the processing

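With the mouse as a replicate block the members called numbered 28 for IC in DMSO and 18 for IC in iBET, and 18 for the latter by DESeq2 with the block, and no call of the main fit was lost. For the ratio of Psmb10 to Psmb7 the block, added after seeing the data, left p at 0.0625 under both stimuli. Surrogate variables gave 26 (iBET in Ova) and 25 (iBET in IC). Mice A and B alone, a division known from earlier results of these data, gave 6 and 3 for iBET in Ova and IC and 0 for both IC comparisons, and mice C, D and E alone gave 3 for IC in iBET. Scaling by library totals gave 7 and 1 for IC in DMSO and in iBET, the 10 libraries of the groups compared 11 and 5, and no filter on low counts 3 for IC in iBET. With a log2 fold change of 0.5 or more in size also required there were 1 and 2 calls for iBET in Ova and IC, and 0 for both IC comparisons. Leaving out 1 mouse gave 10 to 14 calls for iBET in Ova, 11 to 15 for iBET in IC, 8 to 20 for IC in DMSO, 0 to 6 for IC in iBET and 0 for the interaction. The sign reversed for Psmb5 with iBET in Ova (0.0297, mice C, D and E alone), Psmb6 with iBET in Ova (-0.098, mice A and B alone) and the interaction of Psmc4 (0.0036, mice A and B alone). The causes were not tested, and fits without mice also held fewer libraries. Of 18 levels per length, 12 moved by more than 1 SD with the length of the longest transcript. Counting depth limits Psma8, Psmc3ip and Psmb11 most.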
